A study of Rattus norvegicus with 60 samples.

Results

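The difference between lungs of rats that had inhaled crystalline silica and lungs of rats that had breathed filtered air was measured 2 weeks after the last exposure day. All samples whose titles give 2 weeks after exposure were taken, which are 12 of the 60 arrays of the series, 8 from silica rats and 4 from air rats. Every array held whole-lung RNA of 1 male rat of the inbred strain labelled CDF Fisher 344, housed with 12 hours of light a day. The labels give an age of about 3 months for the rats of all weeks, so it cannot be the age at death in every week. The silica rats had breathed 15 mg/m3 of silica for 6 hours a day on 5 days, and the air rats had breathed filtered air on the same schedule. The other 48 arrays hold the same 2 groups, 8 silica and 4 air rats each, at 1, 4, 8 and 16 weeks, and each week has air rats of its own. The hour of the day at which a rat was killed is not given in the labels used here.

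Levels are given on the log2 scale of background-corrected and quantile-normalized bead intensity, so that a difference of 1 is a doubling, and they compare rats for 1 gene but not 1 gene with another. Median intensities of the 12 arrays before any correction were 67.1 to 92.4, and 11620 to 12594 of the 21792 genes on an array were detected. The lowest median correlation of any of these arrays with the others of the same week was 0.992, and no array of the week stood apart. The RNA had the make-up of lung: of the type I alveolar cell markers 11 of 11 measured genes were detected in every rat, as were 10 of 10 endothelial markers, and of the type II cell genes 13 of 14 were detected in all 8 silica rats and 14 of 14 in all 4 air rats. A gene is said to rise or fall in silica lungs where limma's moderated test, fitted over all 60 arrays, gave an adjusted p under 0.05 over the 13918 genes tested. Whole-lung RNA cannot tell fewer cells of a type from less RNA per cell.

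Inhaled silica particles are taken up by alveolar macrophages, which they injure, and the lung answers with chemokines that draw in neutrophils and monocytes, with changes in the alveolar and airway epithelium, and over longer times with scarring. The lung also runs a circadian clock, in which the proteins of Bmal1 and Clock bind E-box sequences and switch on, among others, the Per and Cry genes, Nr1d1, Dbp and Tef. Per and Cry proteins then inhibit that pair, and the receptor encoded by Nr1d1 represses Bmal1, Cry1 and Nfil3 through ROR elements. Levels of these genes move with the hour of the day, and Nr1d1 and Bmal1 peak at opposite phases.

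In silica lungs at 2 weeks 666 genes rose and 641 fell, together 1307 genes, or 9.39% of those tested, with 4.79% in the upward and 4.61% in the downward direction. The change was small for most of them, and 113 genes (0.812%) changed by at least 1.5-fold at an adjusted p under 0.01, of which 94 were higher and 19 were lower in silica lungs. Among the 20 largest rises were chemokines, macrophage and secretory epithelial genes, the neutrophil gene Cd177, Nr1d1 and several genes outside these groups. Among the clock genes, 5 rose and 3 fell, with Nr1d1 higher and Bmal1, Cry1 and Nfil3 lower in silica lungs. The count of changed genes rests on the few air rats: 540 genes were called when air replicate 3 was left out, 468 when air replicate 4 was, and 1904 when air replicate 2 was. It also rests on the scaling, since 582 genes were called after median scaling (145 higher, 437 lower) and 1280 after cyclic loess (786 higher, 494 lower).

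The promoters of the clock genes show which of the circuit's sequences stand near their starts. RefSeq promoters on the GRCr8 build, 250 bases before to 50 bases after each start, were at hand for 7 of the 8 clock genes that changed and for 9675 of the 13918 genes tested, and were read on both strands. The E-box letters CACGTG stood in 4 of those 7 promoters, and in 9.23% of all promoters. The letters TTATGNAA, a D-box, to which the proteins of Dbp, Tef and Nfil3 bind, stood in the promoter of Per2 and in 2.23% of all promoters. The ROR element core TNGGTCA stood in that of Bmal1 and in 10.7% of all promoters. Each of the 6 clock promoters with such a match is shown over 120 bases with the match in capitals and its first base counted from the start, and no 2 motifs overlap in the windows shown.
Nr1d1 (chr10:84229583-84229702, minus strand, E-box at -191): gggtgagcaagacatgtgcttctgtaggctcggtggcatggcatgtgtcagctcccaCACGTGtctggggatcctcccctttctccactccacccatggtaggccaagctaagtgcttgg
Tef (chr7:115206577-115206696, plus strand, E-box at -198): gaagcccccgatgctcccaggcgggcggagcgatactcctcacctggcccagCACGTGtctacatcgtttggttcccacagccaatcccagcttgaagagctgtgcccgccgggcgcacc
Bhlhe40 (chr4:143174200-143174319, plus strand, E-box at -220): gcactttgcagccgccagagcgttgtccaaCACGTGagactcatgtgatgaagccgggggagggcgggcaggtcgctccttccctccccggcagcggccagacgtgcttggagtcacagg
Bhlhe41 (chr4:180569356-180569475, minus strand, E-box at -48): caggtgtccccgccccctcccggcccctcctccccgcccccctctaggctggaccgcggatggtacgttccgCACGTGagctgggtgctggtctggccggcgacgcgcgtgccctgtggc
Per2 (chr9:99497122-99497241, minus strand, D-box at -192): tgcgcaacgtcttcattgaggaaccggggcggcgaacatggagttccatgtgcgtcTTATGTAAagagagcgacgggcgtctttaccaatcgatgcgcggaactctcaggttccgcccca
Bmal1 (chr1:176766208-176766327, plus strand, ROR element core at -16): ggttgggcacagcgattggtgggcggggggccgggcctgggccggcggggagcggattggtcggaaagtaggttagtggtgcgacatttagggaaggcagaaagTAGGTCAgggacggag
All 4 promoters with an E-box belong to clock genes that rose, and the promoter with the ROR element core belongs to a clock gene that fell. The clock lists were drawn up by the arms of the circuit, so this pairing is in part built in, and it was not tested. For the ROR element core 1 of 7 promoters is 14.3%, near the 10.7% of all promoters. Over all changed genes the E-box stood in 10.5% of the promoters of genes that rose and in 7.51% of those of genes that fell, the D-box in 1.82% and 2.03%, and the ROR element core in 9.51% and 10.8%.

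Nr1d1, the repressor arm of the clock, lay at 8.71, 9.76 and 10.12 (lowest, median and highest of 8) in silica rats, against 7.44, 7.90, 7.84 and 7.78 in the 4 air rats. Every silica rat was above every air rat, although the silica rats spread over more than 1 log2 unit. The difference was 1.90 ± 0.35 (SE), a 3.73-fold rise with an adjusted p of 0.000206. Bmal1, the activator that Nr1d1 represses, lay at 6.20, 6.58 and 7.02 in silica rats, against 7.24, 7.26, 7.28 and 7.29 in air rats. It fell by 0.69 ± 0.09 (adjusted p = 1.9e-07), and the air rats differed among themselves by less than any silica rat differed from them. Cry1, a repressor of the activator pair, lay at 8.23, 8.57 and 8.89 in silica rats, against 9.20, 9.11, 9.41 and 9.43 in air rats. It fell by 0.75 ± 0.11 (adjusted p = 3.89e-06), again without overlap of the groups.

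Further genes of the circuit changed at 2 weeks. Nfil3, the repressor at D-box sites, lay at 8.07, 8.36 and 8.67 in silica rats and at 8.79, 8.76, 8.84 and 8.91 in air rats, and fell by 0.46 ± 0.08 (adjusted p = 5.71e-05). Tef, an activator at the same sites, lay at 6.67, 7.04 and 7.60 in silica rats and at 6.46, 6.80, 6.68 and 6.21 in air rats, and rose by 0.55 ± 0.14 (adjusted p = 0.0083). Per2, a partner of the Cry proteins, lay at 8.46, 8.98 and 9.61 in silica rats and at 8.48, 8.66, 8.30 and 8.47 in air rats, and rose by 0.55 ± 0.13 (adjusted p = 0.00311). The groups did not overlap for Nfil3 and overlapped for Tef and Per2, where silica replicate 2 lay within the air range in both and silica replicate 1 in Tef. Bhlhe40 and Bhlhe41, repressors of the activator pair, rose by 0.28 ± 0.08 and 0.49 ± 0.14 (adjusted p = 0.0153 for each), and both missed the threshold after median scaling or when air replicate 3 or 4 was left out. Tef passed without air replicate 3 and not without air replicate 4.

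The other clock genes did not pass. Dbp differed by 0.27 ± 0.26, Per1 by -0.30 ± 0.28, Usp2 by -0.06 ± 0.14, Cry2 by 0.17 ± 0.12, Npas2 by -0.09 ± 0.09, Clock by -0.04 ± 0.09 and Rora by 0.17 ± 0.10. In all, 16 of 20 listed clock genes were measured, and of the 9 genes of the arm that E-box and D-box sites drive 5 rose and 0 fell, with a median difference of 0.28. Of the 7 genes of the Bmal1 arm 0 rose and 3 fell, with a median of -0.09, beside a median of -0.01 over all genes tested. The first count was 2 with air replicate 4 left out, and 3 with air replicate 3 left out or after median scaling, while the 3 falls passed in each of these.

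**Figure D1:**
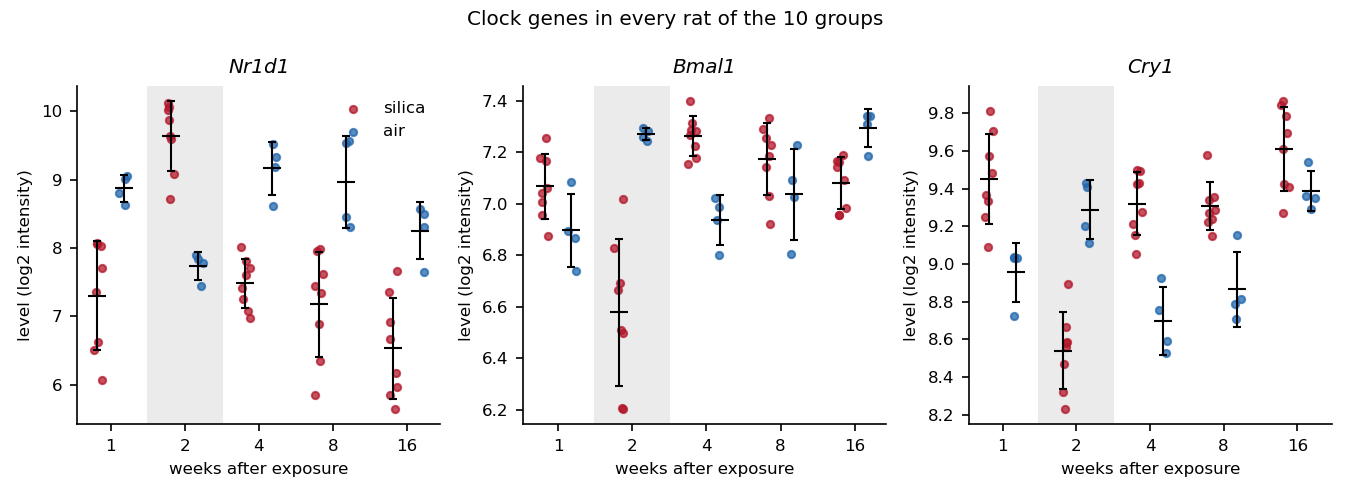
Levels of Nr1d1, Bmal1 and Cry1 (log2 intensity, vertical axes) in every rat at each week of the study (horizontal axes), with silica rats in red to the left of air rats in blue, a bar at each group mean with its SD, and 2 weeks shaded. At 2 weeks every silica rat stands above the air rats for Nr1d1 and below them for Bmal1 and Cry1, and for Nr1d1 and Cry1 the group means stand in the opposite order in the other weeks.

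At the other weeks Nr1d1 and Cry1 differed in the opposite direction. Nr1d1 averaged 7.30 ± 0.80, 9.64 ± 0.51, 7.48 ± 0.36, 7.18 ± 0.77 and 6.53 ± 0.74 (SD, n = 8) in silica rats of the 5 time points, from 1 to 16 weeks. In air rats it averaged 8.87 ± 0.20, 7.74 ± 0.21, 9.16 ± 0.39, 8.97 ± 0.67 and 8.25 ± 0.42 (SD, n = 4). Both groups of 2 weeks therefore lay outside the range of their counterparts: the silica mean was the highest of the 5 silica means, and the air mean was the lowest of the 5 air means. The silica minus air difference was 1.90 at 2 weeks and -1.57, -1.68, -1.79 and -1.72 at 1, 4, 8 and 16 weeks, and the contrast of 2 weeks with the mean of the other weeks was 3.59 (adjusted p = 8.86e-09). For Cry1 the difference was -0.75 at 2 weeks and 0.50, 0.62, 0.44 and 0.23 at the others, a contrast of -1.20 (adjusted p = 4.98e-09). For Bmal1 it was -0.69 at 2 weeks and 0.17, 0.33, 0.14 and -0.21 at the others, a contrast of -0.80 (adjusted p = 5.98e-07). Nfil3 and Tef also differed from the other weeks, by -0.80 and 0.88 (adjusted p = 1.38e-08 and 0.00148). For Per2 the difference was 0.55 at 2 weeks and 0.00, 0.23, 0.14 and 0.45 at the others, of which the one at 16 weeks passed. Bhlhe40 and Bhlhe41 did not depart from the other weeks in limma's test, with contrasts of 0.00 and -0.026 (adjusted p = 0.999 and 0.986). They also rose at 16 weeks, by 0.54 and 0.755, where Nr1d1 was lower in silica rats.

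Among the 8 silica rats the clock genes varied together. Nr1d1 and Cry1 had a Pearson r of -0.875 (exact permutation p = 0.00238, 0.0064 adjusted over 3 relations) and a Spearman rho of -0.833 (exact permutation p = 0.0154, adjusted 0.0461). Bmal1 and Cry1 had an r of 0.918 (exact permutation p = 0.00427, adjusted 0.0064) and a rho of 0.69 (exact permutation p = 0.0694, adjusted 0.0694). For Nr1d1 and Bmal1 r was -0.769 (exact permutation p = 0.025, adjusted 0.025) and rho was -0.714 (exact permutation p = 0.0576, adjusted 0.0694). Without the 2 rats farthest from the median on the first gene the r values were -0.683, 0.821 and -0.657 (n = 6). Silica replicates 1 and 2, with the lowest Nr1d1, had the levels of Cry1 nearest to those of air rats.

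Cardiac muscle, which lines the large pulmonary veins of rodents, gave RNA in amounts that varied from rat to rat, and none of its 8 measured markers passed, adjusted or at an unadjusted p under 0.05. Their mean level was lowest in the silica rats with the lowest Nr1d1. Among silica rats it was highest in replicates 5, 7 and 8, where Nr1d1 was also highest. The relation was not tested. The cardiac mean was 5.09 in silica replicate 1, 6.18 in replicate 2, and between 6.72 and 8.51 in the other 6 silica rats, against 6.49, 7.68, 5.11 and 6.73 in the 4 air rats. Myh6, a heart myosin, ranged over 4.70 to 11.95 in silica rats and 4.70 to 10.68 in air rats. Within the 4 air rats Nr1d1 stood between 7.44 and 7.90 and the cardiac mean between 5.11 and 7.68, and their relation was not tested either. With the cardiac mean as a covariate the difference was 1.78 for Nr1d1, -0.68 for Bmal1 and -0.70 for Cry1, and 1235 genes were called (8.88%), 666 higher (4.79%) and 569 lower (4.09%). With the mean of liver markers in its place 1227 were called (8.82%), 628 higher (4.52%) and 599 lower (4.31%).

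The largest rise was that of Cd177, a surface protein of neutrophils, at 11.32, 11.57 and 11.91 in silica rats against 8.37, 9.81, 9.11 and 9.27 in air rats. The lowest silica rat lay above the highest air rat by more than 1 log2 unit, and the difference was 2.43 ± 0.23, or 5.38-fold (adjusted p = 1.7e-11). Slc26a4, an anion exchanger of airway epithelium, lay at 9.31, 9.98 and 10.23 in silica rats against 6.43, 8.11, 7.47 and 7.96 in air rats, a difference of 2.37 ± 0.31 (5.15-fold, adjusted p = 1.24e-07). In both genes air replicate 1 was the lowest rat. Lcn2, which binds bacterial iron carriers and is made by neutrophils and epithelium, lay at 9.40, 9.54 and 9.97 in silica rats against 6.85, 7.30, 7.16 and 7.87 in air rats, a difference of 2.32 ± 0.20 (5.00-fold, adjusted p = 1.92e-12). Mmp12, the macrophage elastase, lay at 9.23, 10.26 and 11.07 in silica rats against 7.55, 8.84, 7.76 and 7.98 in air rats, a difference of 2.19 ± 0.30 (4.58-fold, adjusted p = 5.68e-07). It had the widest spread of these genes among silica rats, and air replicate 2 came closest to them. Cxcl6, a neutrophil chemokine, lay at 7.06, 7.38 and 7.89 in silica rats against 5.40, 5.38, 4.99 and 5.48 in air rats, a difference of 2.14 ± 0.23 (4.41-fold, adjusted p = 1.13e-09), and was detected in 3 of the 4 air rats.

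Among these 5 genes the promoters of Mmp12 and Cxcl6 held one of the motifs searched. An NF-kB motif (3 G, any 2 bases, 3 T and 2 C) was also read in every promoter and found in 1.84% of them. Nr1d1, which has 2 listed promoters, held this motif too, outside the window shown for it above. They are shown as the clock promoters are.
Mmp12 (chr8:12866469-12866588, plus strand, E-box at -126): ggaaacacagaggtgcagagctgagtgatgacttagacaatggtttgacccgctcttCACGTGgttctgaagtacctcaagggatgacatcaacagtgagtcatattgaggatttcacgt
Cxcl6 (chr14:17596441-17596560, minus strand, NF-kB at -88): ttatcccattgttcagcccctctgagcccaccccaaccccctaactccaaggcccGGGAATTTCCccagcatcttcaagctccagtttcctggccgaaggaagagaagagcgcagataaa
The NF-kB motif stood in 2.83% of the promoters of genes that rose and in 3.25% of those of genes that fell, above the share of all promoters in both directions; the differences were not tested.

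**Figure D2:**
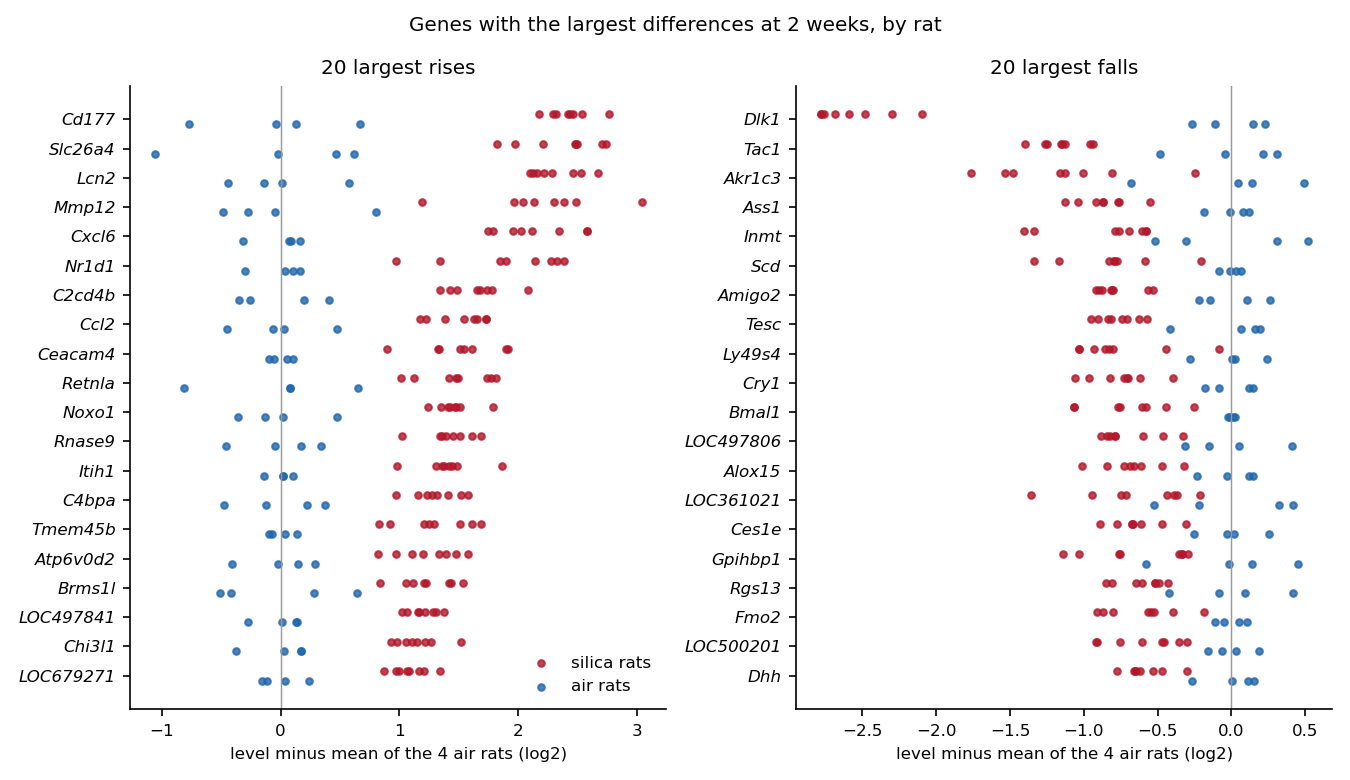
Level minus the mean of the 4 air rats (log2, horizontal axes) for the 20 largest rises, left, and the 20 largest falls, right, with 1 row per gene, the 8 silica rats as red points and the 4 air rats as blue points just below them. The groups do not overlap in any of the 20 rises, and do not overlap in 16 of the 20 falls, Dlk1 and Tac1 among them.

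The 20 largest rises go on with C2cd4b at 1.65 ± 0.15, the monocyte chemokine Ccl2 at 1.51 ± 0.21, Ceacam4 at 2.84-fold and Retnla, a secreted protein of alternatively activated macrophages and airway epithelium, at 1.48 ± 0.25. Noxo1, the organizer subunit of an epithelial NADPH oxidase, rose by 1.46 ± 0.18, Itih1, a plasma protease inhibitor chain, by 1.40 ± 0.17, and C4bpa, a complement inhibitor, by 1.31 ± 0.15. Atp6v0d2, a subunit of the vacuolar proton pump in macrophages and osteoclasts, rose by 1.23 ± 0.19 and Chi3l1, a chitinase-like protein of macrophages, by 1.15 ± 0.12. Rnase9, Tmem45b, Brms1l, LOC497841 and LOC679271 complete these 20 with Nr1d1, and rose by 1.09 to 1.42. In all 20 every silica rat lay above every air rat, which held for 1.95% of all genes tested (3.35% showed no overlap in either direction), but these genes were picked by the same difference. All of them except Nr1d1 were also called higher at each of the other 4 weeks.

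Dlk1, a non-canonical Notch ligand, had the largest fall. It lay at 4.72, 4.86 and 5.40 in silica rats, where it was detected in 3 of 8, against 7.73, 7.23, 7.65 and 7.39 in air rats. The difference was -2.56 ± 0.25, a 5.90-fold fall (adjusted p = 3.59e-11) with the silica level near the limit of detection. Tac1, which encodes the neuropeptide substance P, lay at 4.91, 5.16 and 5.36 in silica rats against 6.61, 5.82, 6.26 and 6.52 in air rats, and fell by 1.16 ± 0.14 (adjusted p = 3.56e-08). Akr1c3, an aldo-keto reductase, lay at 4.61, 5.22 and 6.12 in silica rats against 5.70, 6.51, 6.87 and 6.42 in air rats, and fell by 1.14 ± 0.25 (adjusted p = 0.00198) with overlap of the groups and with detection in 5 of 8 silica rats. Ass1, argininosuccinate synthase, lay at 8.06, 8.32 and 8.64 in silica rats against 9.18, 9.00, 9.27 and 9.31 in air rats, and fell by 0.86 ± 0.10 (adjusted p = 1.94e-08). Scd, a fatty acid desaturase, lay at 11.76, 12.30 and 12.89 in silica rats against 13.08, 13.01, 13.16 and 13.12 in air rats, and fell by 0.81 ± 0.13 (adjusted p = 2.57e-05). For Ass1 and Scd every silica rat was below every air rat, and the silica rats spread more widely than the air rats.

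The remaining falls among the 20 largest include Inmt, an amine methyltransferase, at -0.84 ± 0.19, Alox15, a lipoxygenase, at -0.67 ± 0.14, Fmo2, the lung flavin monooxygenase, at -0.60 ± 0.12, and Gpihbp1, which anchors lipoprotein lipase to capillaries, at -0.62 ± 0.15. Gpihbp1 did not pass without air replicate 3, where its difference was -0.47. Of the 20 falls 16 showed no overlap of the groups, which held for 1.39% of all genes in that direction. Only 5 of the 20 were called lower at each of the other weeks, against 19 of the 20 largest rises; the difference between these shares was not tested.

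Several chemokines and cytokines rose. For the list counts here and below, 4.79% of all genes tested rose and 4.61% fell. Of 7 neutrophil chemokines and their receptor 4 rose and 0 fell, with a median difference of 0.45: Cxcl6, Cxcl1 at 1.08 ± 0.17, Cxcl3 at 0.45 ± 0.09 and Cxcl17 at 0.42 ± 0.10. Of 19 chemokines that draw monocytes and lymphocytes 7 rose and 0 fell, with a median of 0.30, among them Ccl2, Ccl7 at 0.99 ± 0.20, Ccl3 at 0.82 ± 0.14 and Cxcl9 at 0.59 ± 0.11. Of 12 cytokines of inflammation 3 rose, Il1rn, Il1r2 and Il18, by 0.63, 0.57 and 0.49. Of 12 neutrophil markers 4 rose, among them Cd177, Il1r2 and S100a8 at 0.41 ± 0.14, and of these named genes only Cd177 exceeded 1 log2 unit. S100a8 was just past the threshold (adjusted p = 0.0496) and missed it after median scaling and in 9 of the 12 fits that left out 1 rat. After median scaling 2 of the neutrophil chemokines and 3 of the other chemokines passed.

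Macrophage genes and MHC class II genes rose as well. Of 20 macrophage markers 13 rose and 0 fell, with a median of 0.41, led by Mmp12, Atp6v0d2 and Chi3l1, with Cd68 at 0.68 ± 0.12 and the mannose receptor Mrc1 at 0.37 ± 0.10. Of the 9 MHC class II genes, which present antigen to helper T cells, 8 rose, with a median of 0.42: RT1-Db1 rose by 0.64 ± 0.10, RT1-DMa by 0.42 ± 0.07 and RT1-DMb by 0.39 ± 0.06. RT1-Db1 lay at 11.84, 12.12 and 12.31 in silica rats against 11.38, 11.48, 11.60 and 11.45 in air rats, without overlap. After median scaling 4 macrophage markers and 1 MHC class II gene passed, and both medians stayed above 0, at 0.26 and 0.27. Of 7 genes of alternative activation 3 rose, Retnla, Arg1 at 0.59 ± 0.12 and Mrc1, and Il4r, the receptor for interleukin 4, fell by 0.51 ± 0.10. Of 17 lysosome genes 6 rose and 2 fell.

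Few markers of other white cells passed. Of 11 T cell markers 0 passed, and 0 had an unadjusted p under 0.05. Of 8 NK and cytotoxic cell markers 2 fell, the granzymes Gzmb at -0.42 ± 0.11 and Gzma at -0.36 ± 0.10, and neither passed without air replicate 4. Of 8 B and plasma cell markers Jchain rose, by 0.72 ± 0.20, and of 8 mast cell markers Kit rose, by 0.56 ± 0.13; both missed the threshold when air replicate 3 or 4 was left out. Of 14 interferon-stimulated genes 3 fell, Bst2, Ifi27 and Irf1, by 0.35, 0.23 and 0.20, and 0 passed when air replicate 3 or 4 was left out.

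Among epithelial genes, members of the type II and secretory cell lists rose, and 0 of the type I cell list did. Of 14 type II cell and surfactant genes 8 rose and 1 fell, with a median of 0.33: Muc1 rose by 0.55 ± 0.12, the lamellar body protein Lamp3 by 0.45 ± 0.09 and the lipid transporter Abca3 by 0.35 ± 0.07, and Dlk1 fell. After median scaling 0 of these rises passed, and the median was 0.13. Of 11 club, mucous and secretory cell genes 4 rose, Slc26a4, Lcn2, Cldn10 at 0.86 ± 0.10 and Pigr, which carries IgA across epithelium, at 0.70 ± 0.10. The median of this list was 0.48 and was 0.00 with the cardiac mean as a covariate, under which the 4 rises passed. Across rats the mean level of these genes and of the cardiac markers were both highest in silica replicate 7 among silica rats and in air replicate 2 among air rats. Of 11 type I cell markers 1 fell, Ager, by 0.24 ± 0.06, and of 10 ciliated cell markers 1 fell, Tppp3, by 0.31 ± 0.10. Ager missed the threshold after median scaling or without air replicate 4, and Tppp3 without air replicate 2, 3 or 4 or silica replicate 4. Since 4.61% of all genes fell, 1 fall in a list of this length says little about the list.

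Some complement and cell cycle genes rose. Of 16 complement genes 7 rose and 0 fell, with a median of 0.23, among them the protease Cfi at 0.95 ± 0.23, C7 at 0.67 ± 0.16, C5 at 0.45 ± 0.09 and Cfb at 0.30 ± 0.06. Of 21 cell cycle genes 7 rose and 0 fell, with a median of 0.23, among them Rrm2, a subunit of ribonucleotide reductase, at 0.62 ± 0.14, Prc1, which bundles the midzone of the spindle, at 0.54 ± 0.10, and the replication helicase subunit Mcm6 at 0.27 ± 0.07. After median scaling 2 complement genes and 1 cell cycle gene passed, and without air replicate 3 the counts were 5 and 3.

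Some genes of blood vessels and of drug metabolism fell. Of 10 endothelial markers 4 fell and 0 rose, Egfl7, Cldn5, Vwf and Ramp2, by 0.39, 0.37, 0.30 and 0.25, with a median over the list of -0.10. Without air replicate 3 only 1 passed. Of 13 enzymes that metabolize drugs and steroids 5 fell and 0 rose, Akr1c3, Inmt, Fmo2, Cyp4b1 and Fmo1, with a median of -0.23. Cyp4b1, a lung cytochrome P450, lay at 11.69, 12.06 and 12.14 in silica rats against 12.40, 12.46, 12.21 and 12.52 in air rats, and fell by 0.37 ± 0.07 (adjusted p = 0.000314). The enzyme count held after median scaling, at 5, and was 4 without air replicate 3.

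**Figure D3:**
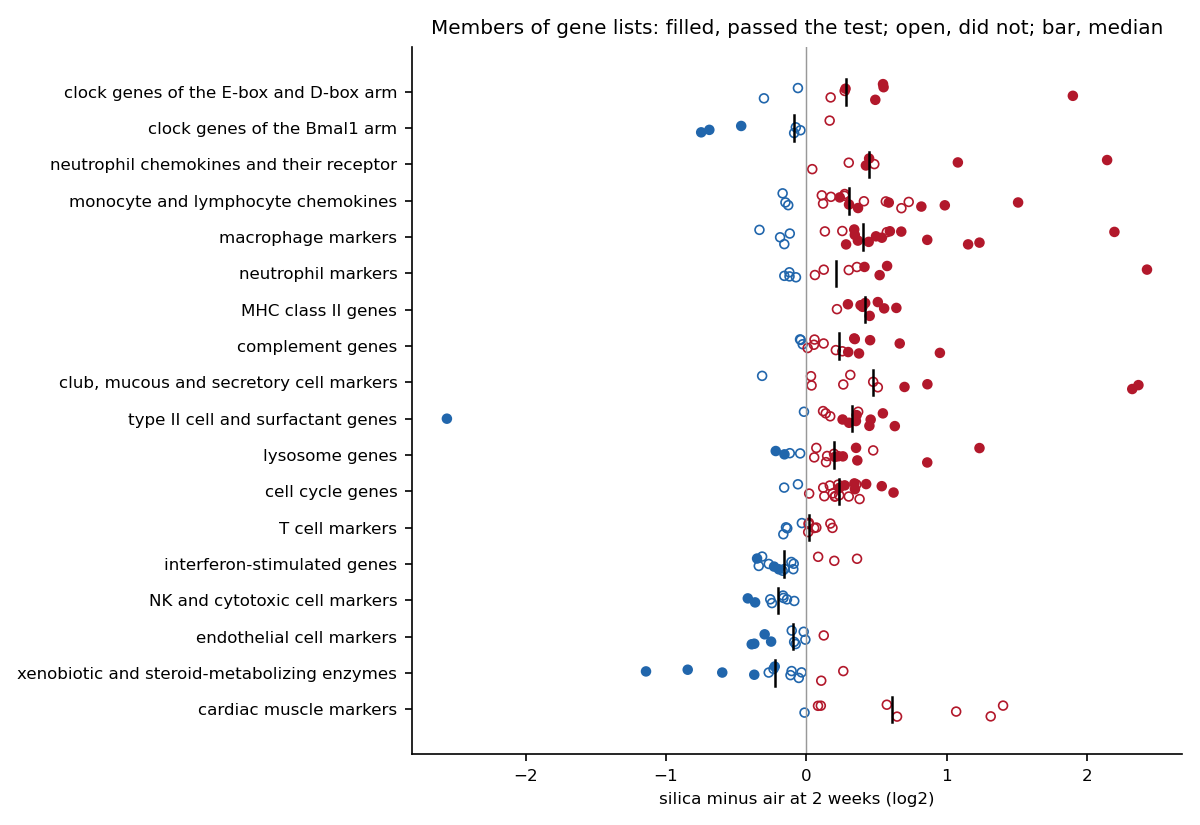
Silica minus air difference at 2 weeks (log2, horizontal axis) for every measured gene of selected gene lists (rows), with genes that passed filled, those that did not open, values above 0 in red and below 0 in blue, and the list median as a bar. Macrophage, MHC class II, chemokine and type II cell genes lie mostly to the right of 0, endothelial and drug-metabolizing genes mostly to the left, and cardiac genes spread widely with none passing.

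The 2 week difference resembled that of the other weeks for most genes that changed. Of the 666 genes that rose, 638 (95.8%) had a mean difference above 0 over the other 4 weeks, and of the 641 that fell, 597 (93.1%) had one below 0, while 69.4% of all genes had the same sign. The 2 sides share no rats. At 1 week 532 genes were called (3.82%), 373 higher (2.68%) and 159 lower (1.14%). At 4 weeks it was 922 (6.62%), 398 higher (2.86%) and 524 lower (3.76%), at 8 weeks 1241 (8.92%), 663 higher (4.76%) and 578 lower (4.15%), and at 16 weeks 3159 (22.7%), 1459 higher (10.5%) and 1700 lower (12.2%). The genes called higher at 2 weeks and also at 1 week numbered 244, which is 36.6% of the 2 week rises and 65.4% of the 1 week rises. The corresponding numbers were 275 for 4 weeks (41.3% and 69.1%), 329 for 8 weeks (49.4% and 49.6%) and 447 for 16 weeks (67.1% and 30.6%). The shared falls numbered 48 with 1 week (7.49% and 30.2%), 175 with 4 weeks (27.3% and 33.4%), 147 with 8 weeks (22.9% and 25.4%) and 333 with 16 weeks (52.0% and 19.6%). Of the rises 160 (24.0%) were called higher at all 4 other weeks, and of the falls 13 (2.03%) were called lower at all of them. Between 5 and 9 genes were called in opposite directions at 2 weeks and at any 1 other week.

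**Figure D4:**
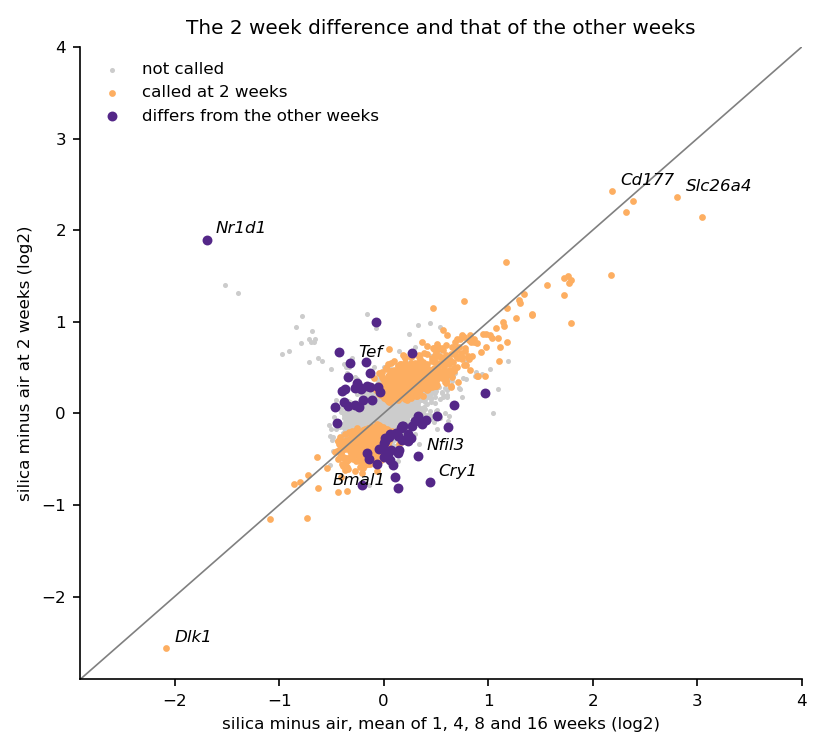
Silica minus air difference at 2 weeks (log2, vertical axis) against the mean difference of the other 4 weeks (log2, horizontal axis) for all genes tested, with genes called at 2 weeks in orange, the 67 genes that differ from the other weeks in purple, and the line of equal values. Most called genes lie at the upper right or lower left, where both values have the same sign, and Nr1d1, Cry1 and Bmal1 lie where the signs differ.

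A direct contrast found 67 genes (0.481%) whose 2 week difference was not that of the other weeks, 26 (0.187%) with a larger value at 2 weeks and 41 (0.295%) with a smaller one. Clock genes led it: Nr1d1 had the largest contrast, and Bmal1, Cry1, Nfil3 and Tef were among the 67. Scd differed by -0.95, with a difference of -0.81 at 2 weeks and of 0.28, 0.23, 0.37 and -0.33 at 1, 4, 8 and 16 weeks. Marchf7, a ubiquitin ligase, differed by 1.07, with 1.00 at 2 weeks and -0.23, 0.12, 0.03 and -0.21 at the others. Acot1, an acyl-CoA thioesterase, and Cpt1a, the carnitine acyltransferase that feeds fatty acids into mitochondria, had contrasts of 1.10 and 0.58 and rose at 2 weeks, by 0.67 ± 0.22 and 0.45 ± 0.10. Acot1 was not called at 2 weeks in 7 of the 12 fits that left out 1 rat, after median scaling, without background correction or in the authors' deposited values, and Cpt1a was not called after median scaling. The B cell genes Ms4a1 and Cd79b had contrasts of 0.73 and 0.64, and their own 2 week differences, 0.40 ± 0.14 and 0.27 ± 0.14, did not pass. Leaving out air replicate 1, 2, 3 or 4 gave 118, 147, 35 or 33 genes, and 14 were called after median scaling (4 with a larger and 10 with a smaller value).

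How much of the 2 week difference follows the clock was first asked by adding the levels of Nr1d1, Bmal1 and Cry1 of each rat to the model. The number of called genes was then 116 of 13915 (0.834%), 103 higher (0.74%) and 13 lower (0.0934%), with 1809 at an unadjusted p under 0.05. Of the 1304 genes called before, the 3 clock genes left out, 111 (8.51%) were still called. The size of the differences moved far less than the count. The rises retained a median of 98.5% of their difference, and the falls retained 72.0%. Over rises and falls together the median absolute difference was 0.264 with the clock genes in the model and 0.315 without, 228 genes (17.5%) retained less than 50%, and 22 turned in sign. Over all 13915 genes the median retained was 84.9%, 39% of them retained less than 50%, and 3831 turned in sign.

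The standard error of every gene's difference became larger by a factor of 1.59 through the design alone, since silica and air rats of 2 weeks do not overlap in any of the 3 clock genes. Within groups the SD over the 60 rats was 0.59 for Nr1d1, 0.15 for Bmal1 and 0.19 for Cry1, so the differences between silica and air at 2 weeks were 3.19, 4.61 and 4.00 such SDs. Single rats deviated from their group's mean by -1.33 to 1.13 for Nr1d1, by -0.37 to 0.44 for Bmal1 and by -0.36 to 0.36 for Cry1. When the differences without the clock genes were set over the standard errors with them, 62 genes were called, and when the differences with the clock genes were set over the standard errors without them, 2578 were.

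The genes with the largest rises kept them. Of the 26 genes with a difference of 1 or more in either direction, 23 were still called and the median of the difference retained was 111%. With the clock genes in the model Cxcl6 stood at 2.80 ± 0.35, Cd177 at 2.70 ± 0.35, Slc26a4 at 2.69 ± 0.48, Lcn2 at 2.66 ± 0.31 and Mmp12 at 2.46 ± 0.50. Each of these lay at or above its difference without them. Cxcl1, which was picked by its difference in this model, stood at 1.66 ± 0.24, against 1.08 without them. Some of the 20 largest rises became smaller, among them C2cd4b (1.65 to 1.62) and Brms1l (1.23 to 1.01). With Nr1d1 left out, all 19 kept at least 80% of their difference. Of the 20 largest rises 18 were still called, the exceptions being Nr1d1 itself and LOC679271 (adjusted p = 0.09). Of the members that had risen, 3 of 4 neutrophil chemokines, 5 of 13 macrophage markers, 5 of 8 MHC class II genes and 4 of 4 secretory cell genes still passed, and the medians of the difference kept were 133%, 111%, 117% and 114%. Of the 7 complement genes and the 7 cell cycle genes that had risen 0 still passed, while they kept medians of 93.0% and 132%, with C7 at 0.69 ± 0.26 and Bub1 at 0.57 ± 0.19.

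The falls divided. Dlk1 stayed at -2.67 ± 0.40 and Tac1 at -0.84 ± 0.22, and both were still called. Scd moved to -0.25 ± 0.18, Ass1 to -0.44 ± 0.15, Akr1c3 to -0.46 ± 0.39, Gpihbp1 to -0.06 ± 0.23 and Fmo2 to 0.06 ± 0.16, and none of these was called. Other large falls kept about their size under the larger standard error without being called, among them Inmt at -0.84 ± 0.30, Alox15 at -0.78 ± 0.23, Tesc at -0.67 ± 0.21 and Rgs13 at -0.63 ± 0.23. Of the 20 largest falls Bmal1 and Cry1 are covariates themselves, and of the other 18, 3 were still called, 8 kept at least 80% of their difference and 4 kept under 50%. Among clock genes not used as covariates Nfil3 moved to -0.01 ± 0.10, Tef to 0.06 ± 0.20 and Per2 to 0.06 ± 0.18, while Bhlhe41 stood at 0.59 ± 0.22 and Bhlhe40 at 0.14 ± 0.12, none of them called. Of the 5 drug-metabolizing enzymes and the 4 endothelial markers that fell, 0 passed, and they kept medians of 47.6% and 71.3% of their differences, with Cldn5 at -0.34 ± 0.13 and Egfl7 at -0.34 ± 0.17.

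**Figure D5:**
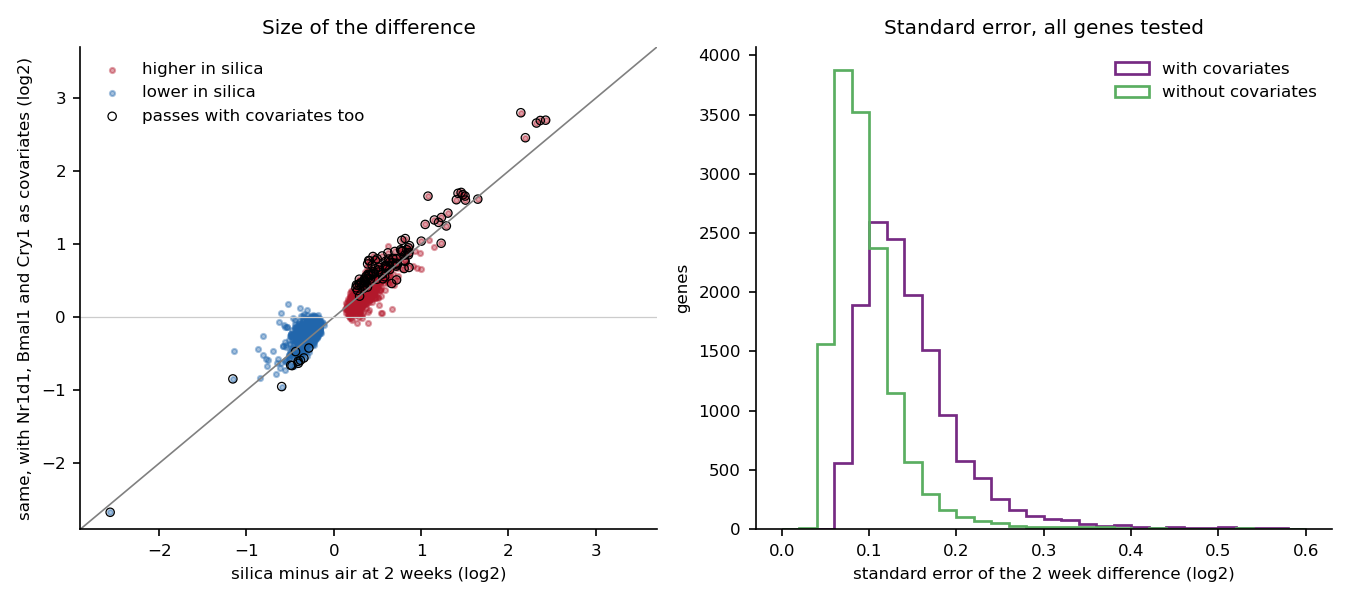
Left, silica minus air difference at 2 weeks (log2) with Nr1d1, Bmal1 and Cry1 in the model (vertical axis) against the difference without them (horizontal axis) for the genes called at 2 weeks, with the line of equal values and black rings around genes that passed in both. The rises past 2 log2 units lie above the line; right, a histogram over all genes of the standard error of the difference (log2), which is shifted to larger values with the clock genes in the model.

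The number of calls depended on which clock genes entered. With Nr1d1 alone 573 genes were called (335 higher, 238 lower), with medians of 98.4% retained for rises and 92.2% for falls. With Nr1d1 and Bmal1 106 were called (83 higher, 23 lower), with 95.4% and 84.8% retained. With a single index, the mean of the E-box and D-box arm minus the mean of the Bmal1 arm, 1303 were called (821 higher, 482 lower), of which 603 were among the 1304, with 117% and 82.2% retained. After median scaling 3447 genes were called with the 3 clock genes in the model, with a shift of the median of all genes to 0.14.

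With the 3 clock genes in the model no gene passed the contrast of 2 weeks with the other weeks: 0 of 13915 passed limma's test (0%), the smallest adjusted p was 0.147, and 1248 genes (8.97%) had an unadjusted p under 0.05, against 1361 (9.78%) without them. The standard error of this contrast also became larger with the clock genes in the model. It went from 0.151 to 0.285 for Cd79b and from 0.256 to 0.455 for Cd177. How many calls were lost through the larger standard error was not tested. With the index 191 genes passed, and after median scaling 2912 did. Of the 64 genes that had differed, the 3 clock genes left out, the median retained was 63.4% of the 2 week difference and 55.7% of the contrast itself. Of their contrasts 16 kept at least 80%, among them Rgs7 at 0.68 ± 0.20, Cd79b at 0.63 ± 0.28 and Lpo at -0.97 ± 0.30, and 26 kept under 50%.

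The clock slopes were also taken from rats outside the comparison. The 48 arrays of the other weeks gave each gene's slopes on Nr1d1, Bmal1 and Cry1, and those slopes and the 2 week clock differences gave a predicted difference. Its sign matched the measured one in 603 of 1304 called genes (46.2%), against 48.9% of all genes. The match was 34.7% for rises and 58.2% for falls, and 31.8% for the genes past 1.5-fold at an adjusted p under 0.01. For the 64 genes that differed from the other weeks it was 41 genes (64.1%). Slopes from the 16 air arrays of the other weeks alone left 9 residual degrees of freedom. With those slopes 301 of 1304 (23.1%) matched, against 40.2% of all genes. With Nr1d1 and Bmal1 as the only clock genes and the 48 arrays 691 (53.0%) did, against 49.1% of all genes.

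Rat by rat, the order of the differences depended on which genes were taken. Over all 661 rises, clock genes left out, the median difference from the air mean was 0.30 in silica replicate 1, whose Nr1d1 was the lowest, and 0.31 to 0.41 in the other silica rats. Over the 93 rises past 1.5-fold at an adjusted p under 0.01 the median was 0.72 in silica replicate 1, whose Nr1d1 lay 0.97 above the air mean, and 0.69 in silica replicate 5, whose Nr1d1 lay 2.38 above it. The other 6 silica rats had medians of 0.75 to 0.87. Over the 638 falls the median was -0.20 in silica replicate 1 and -0.26 to -0.32 in the other silica rats. Over the 17 falls past 1.5-fold at an adjusted p under 0.01 it was -0.81 in silica replicate 1, and the smallest median was -0.60, in silica replicate 3. These genes were chosen by the same comparison, and the medians are a description. Taking 1 air rat at a time as the whole control group, the 638 falls had a median of -0.21, -0.15, -0.39 and -0.37 for air replicates 1, 2, 3 and 4, a wider range than among silica rats.

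Within sets of 12 arrays that follow each other in the deposited table and hold both groups, the direction of the called genes was the same in 85.2%, 99.6%, 88.8% and 98.5% of the 1307, against 60.7%, 79.5%, 62.5% and 78.4% of all genes. The 1307 were called from these same rats, so much of that share is built in. Nr1d1 differed by 2.12, 1.91, 1.46 and 2.08 in these sets and Cry1 by -0.88, -0.82, -0.42 and -0.92. Chip and scan are not given in the labels used here.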

How the data were processed

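Lung RNA of 60 rats was hybridized to Illumina rat bead arrays, 1 array per rat. The deposited table holds bead intensity and a detection p-value per gene, not normalized, per the file headers, and a second deposited table holds the authors' processed log2 values of 12763 genes. BeadStudio, limma and lumi are named in the submitters' processing notes, without versions.

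The detection p-value columns share 1 name, and each was taken for the array between whose intensity and bead error columns it stands. From the intensity table, 1 column displaced by 2 lines (a silica rat of 4 weeks) was returned to its lines (correlation with the median array 0.998 afterwards and 0.232 before), and 120 other per-sample columns were not used. Symbols came from the files and from RefSeq's table (16866 genes by gene identifier, 23 by accession, 4786 kept the file's symbol and 117 have none). Background was corrected with normexp from the negative controls implied by the detection p-values (825 controls, tolerance 0.01), an offset of 16 was added, and quantile normalization and log2 followed. Genes with a detection p under 0.05 on at least 4 arrays were kept, with the brightest line for each of 70 symbols with several, which left 13918.

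limma 3.58.1 in R 4.3.3 fitted 10 group means (50 residual degrees of freedom, 4.3 prior), and a second fit added the levels of Nr1d1, Bmal1 and Cry1. P-values were adjusted by Benjamini and Hochberg's method over all genes tested. Per-gene tests were tested on simulated data. Exact permutation tests were two-sided. Each array is a separate rat in the labels, and their number limits the precision. The genes and the 38 gene lists were chosen with earlier results of these data known. Named are the 20 largest rises and falls that passed, every measured clock gene, up to 4 called members of each other list by adjusted p (the 2 brightest where none was called), the 10 largest contrasts each way against the other weeks and the 10 largest rises and falls that passed with the clock genes in the model. Some list members are not reported here. Alternatives changed the background correction, scaling, filter, weights, blocks, threshold and rats in the fit, and 4 were chosen after seeing the data: the cardiac and liver covariates and the 2 exchanges of standard errors.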

Additional observations from a re-analysis of the deposited data

Results flagged for a closer look

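In 13 of 300 groups examined (150 named genes in silica and in air rats of 2 weeks) 1 rat lay far from the rest, where chance alone gives about 1 in 20. Of these 5 were silica groups and 8 air groups, 4 with air replicate 1 and 4 with air replicate 3 apart. Among silica rats, replicate 5 was lowest for Arg1 (8.95) and for the complement component C5 (8.23), replicate 6 was lowest for Cyp4b1 (11.69), replicate 4 was lowest for Ifi27 (12.64), and replicate 2 was highest for Tmem174 (5.43). Among air rats, replicate 1 was highest for Acot1 (6.89) and the B cell gene Ms4a1 (6.95), and lowest for the transcription factor Egr2 (8.82) and the fibrinogen chain Fgg (11.71). Air replicate 3 was lowest for the mitotic kinase Bub1 (5.75) and for Rgs7 (8.91), and highest for the complement protease Cfd (10.17) and the collagen Col4a1 (11.66). Without that rat the rise of Bub1 and the fall of Col4a1 at 2 weeks did not pass, at 0.25 and -0.14, and without air replicate 1 the rise of Fgg did not pass, at 0.20.

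The silica minus air difference of 2 weeks departed from the mean of the other weeks, by limma's test of that contrast, in 22 named genes. The clock genes had contrasts of 3.59 for Nr1d1, -1.20 for Cry1, -0.80 for Bmal1, -0.80 for Nfil3 and 0.88 for Tef. Genes with a larger value at 2 weeks were Acot1 at 1.10, Marchf7 at 1.07, Kit and Ms4a1 at 0.73 each, Cd79b and Rgs7 at 0.64 each, and Cpt1a and the adrenergic receptor Adra1b at 0.58 each. Genes with a smaller value at 2 weeks were Scd at -0.95, LOC497762 at -0.76, the peroxidase Lpo at -0.74, LOC362880 at -0.65, the Wnt amplifier Rspo3 at -0.58, Amigo2, Il4r and Mkks at -0.57 each, and the heat shock cochaperone Dnajb1 at -0.32. Of these last 9 genes LOC497762, Lpo and Rspo3 did not pass at 2 weeks itself, with differences of -0.14, 0.23 and 0.09, and the other 6 fell.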

How the results depend on the processing

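Of the 1307 genes called at 2 weeks, counts stayed within 1.5 times of the main count under other background corrections, cyclic loess, the authors' values, the other filters and the cardiac (1235) and liver (1227) covariates. Median scaling gave 582, array weights 745, the 12 arrays of 2 weeks fitted alone 415, and the stricter threshold 113. Leaving out 1 rat gave 468 to 1904. With the 3 clock genes in the model the count was 116, and it was 3447 after median scaling, 0 with the 12 arrays alone (1336 at an unadjusted p under 0.05), 43 with 12 consecutive arrays as a block, 41 at the stricter threshold, 573 with Nr1d1 alone, 1303 with the clock index, 62 and 2578 with the standard errors exchanged, and 75 to 178 without 1 rat. Against the other weeks 67 genes were called, 14 after median scaling, 34 with array weights, 11 at the stricter threshold and 33 to 147 without 1 rat. With the clock genes in the model that count was 0, but 2912 after median scaling, 191 with the clock index and 0 to 1 without 1 rat. The predicted sign matched in 603 genes, and in 301 with slopes from air rats. Median scaling moved the median of all genes to 0.138 with the clock genes in the model, against -0.006 after quantile normalization; the cause was not tested. Silica and air rats share replicate numbers. Deviations from the group means in rats of the same number had correlations of 0.165, -0.349, 0.119 and 0.0563. Of the 4 air rats 1 correlated best with its own number. Whether the numbers pair the rats was not tested. With the replicate block 1141 genes were called, 32 with the clock genes in the model, 79 against the other weeks and 0 with both. Of 122 named genes called at 2 weeks (119 with the liver covariate) none turned in sign in the settings without the clock genes in the model, and 45 no longer passed after median scaling, 24 with air replicate 3 left out and 28 with air replicate 4 left out. With 4 air rats in the week, each of them carries much of the count.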

Other observations

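Outside the groups described above, protective and metabolic genes also changed at 2 weeks. The metal-binding protein Mt1 lay at 10.32, 10.54 and 10.83 (lowest, median and highest) in silica rats, against 9.60, 9.63, 9.72 and 9.79 in air rats, and rose by 0.87 ± 0.09 (adjusted p = 4.84e-11). Sod2, the mitochondrial superoxide dismutase, lay at 10.57, 10.86 and 11.16 in silica rats, against 10.00, 10.12, 9.90 and 9.97 in air rats, and rose by 0.85 ± 0.10 (adjusted p = 1.94e-08). These were the 2 rises among 15 antioxidant and metal-binding genes, of which Sod3, the extracellular dismutase, fell by 0.18 ± 0.05. Sod3 did not pass after median scaling or without air replicate 2 or 4. In arginine metabolism Arg1, the arginase, rose by 0.59 and Slc7a2, an arginine transporter, by 0.45 ± 0.14, while Ass1 and Ddah2, which remake arginine and break down its methylated form, fell by 0.86 and 0.20. Slc7a2 missed the threshold in 5 of the 12 fits that left out 1 rat, after median scaling and in the authors' deposited values. Of 20 lipid genes 3 rose, Lpl, Abcg1 and Cd36, by 0.34, 0.33 and 0.28, and Scd fell. None of these 3 rises passed after median scaling, and Cd36 did not pass without air replicate 3 or 4.

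Of 9 liver-type plasma protein genes 3 rose, Hp, the haptoglobin gene, by 0.78 ± 0.13, the transferrin gene Tf by 0.60 ± 0.09 and Fgg by 0.29 ± 0.09. Of 21 matrix genes 2 rose, Mmp12 and Mmp14 (0.27 ± 0.09), and Col4a1 fell by 0.19 ± 0.06; Mmp14 missed the threshold in 6 and Col4a1 in 5 of the 12 fits that left out 1 rat. Of 11 glucocorticoid-induced genes Dusp1 fell, by 0.53 ± 0.16, which did not pass without air replicate 1 or air replicate 4. Among 7 heat shock genes Dnajb1 fell, and among 12 immediate early genes Egr2 rose, by 0.29 ± 0.07. Over all genes tested 4.79% rose and 4.61% fell, so 1 gene in a list of this length says little about the list.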
